A study of Homo sapiens with 8 samples.

Results

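The genes described are IGFBP2 and IGFBP7, which encode secreted insulin-like growth factor (IGF) binding proteins. They were taken by symbol from a table of 187 genes that the submitters had selected as changed by serum deprivation in NCI-H295R, a steroid-producing cell line from a human adrenocortical carcinoma. They are 2 of the 187 genes. Messenger RNA was sequenced from 4 control libraries, grown with 5% NU-I serum and ITS supplement (insulin, transferrin and selenium), and from 4 libraries of cells in the same DMEM-F12 medium with serum and ITS both left out. All 8 libraries come from this line, and no label gives the time without serum. The series title sets the comparison in a study of how cholesterol shortage bears on adrenal DHEA production.

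IGF1, IGF2 and insulin act through related receptor tyrosine kinases that drive growth and nutrient uptake. IGF binding proteins hold IGFs in the medium and matrix, prolonging their life and limiting or aiding their access to the receptor. IGFBP2 is a high-affinity binder with a preference for IGF2 and carries an integrin-recognition motif near its C-terminus. IGFBP7 shares the family's N-terminal cysteine-rich domain, lacks the C-terminal domain of the high-affinity members, binds IGFs weakly and insulin more readily, and is a component of basement membranes. Adrenocortical carcinomas, NCI-H295R cells among them, commonly express IGF2. In rats, hepatic Igfbp2 mRNA is known to be raised by fasting and by lack of insulin.

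Both genes encode the cysteine cluster that marks the family, shown here because the genes went in opposite directions while sharing it. It was found by translating the coding sequence of the GENCODE 29 transcripts IGFBP2-201 and IGFBP7-201 (GRCh38) and searching for cysteine, glycine, cysteine, cysteine, any pair of residues and cysteine. The 21 bases of each are written 5′ to 3′ on the coding strand, with the cysteine codons in capitals.
IGFBP2: TGCggcTGCTGCtcggtgTGC
IGFBP7: TGCggcTGCTGCcctatgTGC
The IGFBP2 stretch lies in coding exon 1 at chr2:216633773-216633793 on the plus strand, and the IGFBP7 stretch in coding exon 1 at chr4:57110163-57110183 on the minus strand. They were identical at 18 of 21 bases, including every cysteine codon. The arginine-glycine-aspartate integrin motif was encoded once in IGFBP2-201, starting at codon 301 of 325 (stop codon counted), and was found 0 times in the 282 codons of IGFBP7-201.

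IGFBP2 (ENSG00000115457) spans chr2:216632828-216664436, with IGFBP5, another family member, ending 7668 bases beyond it on the opposite strand. IGFBP7 (ENSG00000163453) spans chr4:57030773-57110385, and its 5′ end overlaps the antisense gene IGFBP7-AS1 over 624 bases. IGFBP5 and IGFBP7-AS1 are not in the table and were not analysed here.

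In the authors' deposited table IGFBP2 has a log2 fold change of 0.65 (FDR 1.32e-12) and IGFBP7 of -1.05 (FDR 2.04e-12). Because the table, and these genes within it, were chosen on this same contrast, all differences of these 2 genes between the groups are given below as descriptions without a test. The counts of the 187 genes summed to 262373 to 359195 per library, which is part of a library and not its depth. Libraries were put on a common scale as described under the processing, with size factors of 0.846 to 1.21. The labels do not say whether replicates were separate cultures, so their spread may be technical. Nor do they say that libraries of the same number belong together, so pairs below are by number only. In bulk RNA, fewer expressing cells and less RNA per cell cannot be told apart. Of 14 adrenocortical markers 4 were in the table (HSD3B2, MRAP, INHA and DLK1), each with reads in all 8 libraries. Of the 29 markers of medulla, fibroblasts, endothelium and leukocytes, 0 were in it. Only genes selected as changed are listed, so a marker's absence says nothing of its expression. All 4 tabulated adrenocortical markers were lower after deprivation, as were 94 of the 187 genes in the authors' listing, IGFBP7 among them. Their log2 fold changes were -1.42 for HSD3B2, -1.09 for MRAP, -0.77 for INHA and -0.55 for DLK1. HSD3B2 varied widely, at 379 to 1233 scaled counts after deprivation, and its deposited FDR is 0.099. The adrenocortical markers outside the table could not be seen. The part of any change in these cells' identity or number in the values of IGFBP2 and IGFBP7 was not tested.

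Replicate 1 of both groups stood apart from replicates 2 to 4. Set against log2 ratios of mean counts, the fold changes in the authors' deposited table scattered around a constant offset with an SD of 0.0143 when replicates 2 to 4 were used and of 0.188 when all 8 libraries were. The deposited fold changes of IGFBP2 and IGFBP7 therefore follow 3 of the 4 pairs, and are to be set beside the values without replicate 1. For IGFBP2, IGFBP7 and their ratio, differences are therefore given with and without that pair. Wherever libraries were left out, the size factors from all 8 were kept, so the scale between groups still drew on replicate 1. The ratio uses no size factors. Fitted fold changes of the other genes are over all 8 libraries.

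IGFBP2 mRNA was higher after serum deprivation in each of the 4 same-numbered pairs of libraries. The estimated counts, before any scaling, were 2526, 1938, 1655 and 1489 in control replicates 1 to 4 and 3592, 2337, 2664 and 1826 in the serum-deprived replicates. The serum-deprived library had the larger count in every pair, by 1.21-fold to 1.61-fold. After scaling the controls held 2536, 1598, 1442 and 1571 and the serum-deprived libraries 4235, 2371, 2476 and 2158. Replicate 1 was the highest library of each group, and the groups overlapped because control 1 exceeded serum-deprived replicates 2, 3 and 4.

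The mean scaled count of IGFBP2 went from 1787 ± 504 in controls to 2809.8 ± 959 after deprivation (SD, n = 4 per group). This was 1.57-fold, a log2 fold change of 0.65 ± 0.25 (SE, edgeR fit). Within pairs the scaled log2 difference ran from 0.46 to 0.78, with a mean of 0.64 ± 0.15 (SD, n = 4 pairs). The spread of these 4 differences was smaller than the spread of libraries within a group, which was 0.40 on the log2 scale. That 0.40 came mostly from replicate 1, and without it the spread within a group was 0.091. Nothing about pairing by number is therefore read from this comparison. In replicates 2 to 4 alone the groups did not overlap, at 1442 to 1598 in controls and 2158 to 2476 after deprivation. The deposited fold changes follow these replicates. Without the replicate 1 pair all 187 genes had a Benjamini-Hochberg adjusted p under 0.05 in edgeR. Nothing is therefore read from this lack of overlap. The log2 fold change of IGFBP2 in replicates 2 to 4 was 0.60. Leaving out serum-deprived replicate 1 alone lowered it to 0.39, and leaving out control replicate 1 alone raised it to 0.87.

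IGFBP7 mRNA was lower after serum deprivation in all 4 pairs. Its estimated counts were 1775, 2106, 1686 and 1370.0 in control replicates 1 to 4 and 816, 840.0, 705 and 568 in the serum-deprived replicates. Even unscaled, the highest serum-deprived count lay below the lowest control count. Scaled counts were 1782, 1736, 1469 and 1445 in controls and 962, 852, 655 and 671 after deprivation, again without overlap. Of all 187 genes, 40.1% were lower without overlap and 26.2% were higher without overlap, shares that reflect how the table was selected.

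The mean scaled count of IGFBP7 went from 1608 ± 176 to 785 ± 148 (SD, n = 4 per group), a 2.05-fold lower level. The log2 fold change was -1.03 ± 0.16 (SE, edgeR fit). Within pairs the scaled log2 difference ran from -1.16 to -0.89, with a mean of -1.05 ± 0.12 (SD, n = 4 pairs). Without the replicate 1 pair the log2 fold change was -1.09.

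**Figure D1:**
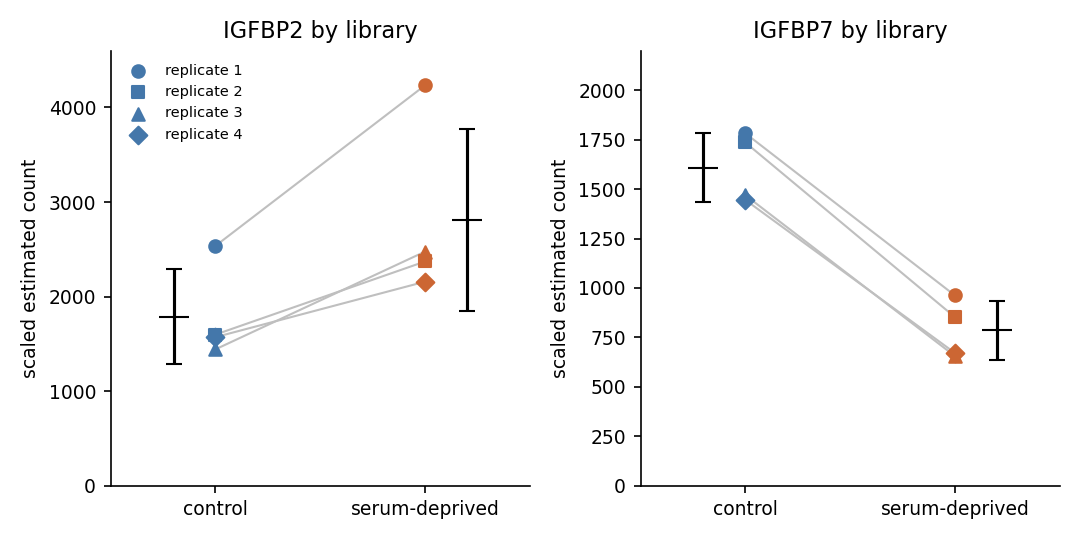
Scaled estimated counts of IGFBP2 (left) and IGFBP7 (right) in each library, with grey lines joining libraries of the same replicate number and black bars showing the group mean ± SD (n = 4). All 4 lines go up for IGFBP2, with replicate 1 highest at 2536 and 4235, and all 4 go down for IGFBP7.

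The opposite directions held over a wide range of scales between the groups. Unscaled, the group means of log2 counts differed by 0.44 for IGFBP2 and by -1.24 for IGFBP7. The scale used places the serum-deprived libraries -0.20 from the controls on the log2 scale. IGFBP2 would be level between the groups at a between-group scale of 0.44 and IGFBP7 at -1.24, and any scale between these leaves IGFBP2 higher and IGFBP7 lower.

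The ratio of the 2 genes within a library needs no scaling at all. IGFBP2 counts divided by IGFBP7 counts were 1.42, 0.920, 0.981 and 1.09 in control replicates 1 to 4. They were 4.40, 2.78, 3.78 and 3.22 in the serum-deprived replicates. Controls held 0.920 to 1.42 IGFBP2 counts per IGFBP7 count, every serum-deprived library held 2.78 or more, and the groups did not overlap. The 2 genes were chosen for their opposite directions on this contrast, so a separation of their ratio is no test. It is given as a description only.

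Between libraries of the same number the ratio was 3.09-fold, 3.02-fold, 3.85-fold and 2.96-fold higher after deprivation for replicates 1 to 4. On the log2 scale its mean was 0.12 ± 0.28 in controls and 1.80 ± 0.29 after deprivation (SD, n = 4 per group). The difference was 1.68 ± 0.20 (SE), or 3.21-fold, and the 4 pair differences had an SD of 0.18. Replicate 1, high in IGFBP2, also had the highest ratio of each group, yet its change of 3.09-fold lay within the range of the other pairs. Without that pair the difference was 1.70.

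**Figure D2:**
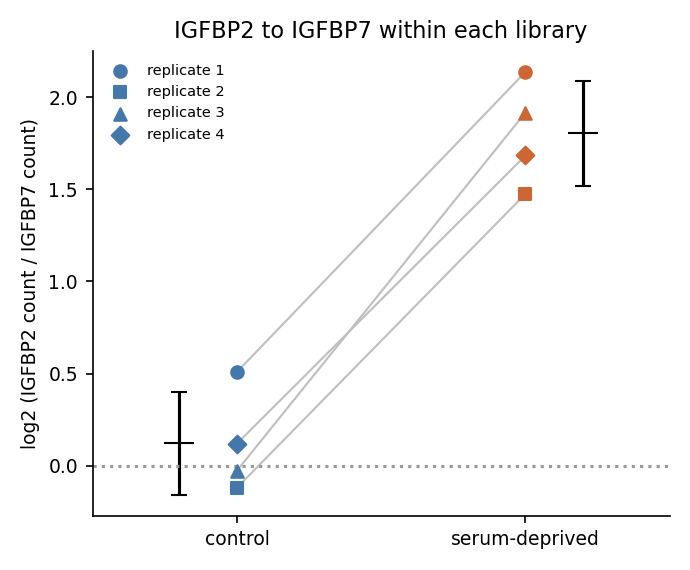
Log2 ratio of the IGFBP2 count to the IGFBP7 count in each library, from unscaled estimated counts, with lines joining same-numbered libraries and black bars showing the group mean ± SD (n = 4). The dotted line marks equal counts, near which the controls lie (mean 0.12), while the serum-deprived libraries lie around 1.80.

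The transcripts IGFBP2-201 and IGFBP7-201 have nearly equal lengths, 1439 and 1427 bases, so counts of the 2 genes can be set beside each other per length. Per kilobase of these transcripts the scaled count was 1242 ± 350.5 for IGFBP2 and 1127 ± 123 for IGFBP7 in controls (SD, n = 4). The levels per kilobase of the 2 genes did not differ beyond their spread in controls. After deprivation they were 1953 ± 666 for IGFBP2 and 550.2 ± 104 for IGFBP7. Which transcripts the cells used is not given in the table.

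The genes also varied differently within a group. The coefficient of variation of scaled counts was 28.2% in controls and 34.1% after deprivation for IGFBP2, and 10.9% and 18.8% for IGFBP7. Counting error alone would give 2.29% and 1.96% for IGFBP2 and 2.40% and 3.70% for IGFBP7 at these counts. Replicate 1 carried most of the IGFBP2 spread. It stood 1.65-fold above the mean of replicates 2 to 4 in controls and 1.81-fold above it after deprivation, against 1.15-fold and 1.32-fold for IGFBP7. The pooled SD of log2 scaled counts was 0.40 for IGFBP2 with replicate 1 and 0.091 without it, and 0.22 and 0.18 for IGFBP7. Without the replicate 1 pair IGFBP2 was thus the less variable of these genes.

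For kallisto, the quantifier named in the submitters' processing notes, reads that match several transcripts are divided by estimation. The counts of IGFBP7 were within 0.0044 of whole numbers in all 8 libraries, while those of IGFBP2 departed by up to 0.413. In GENCODE 29 IGFBP7 has 3 transcripts, and none of their stretches of 31 bases occurs in the same orientation in another gene. In the opposite orientation, 310 of the 1397 stretches of IGFBP7-201 occur in transcripts of IGFBP7-AS1 or POLR2B. The libraries were stranded, but no source used here gives the strand setting of the counting. How far reads of these genes were told apart was not tested. IGFBP2 has 5 transcripts, of which the 4 coding ones share 0 stretches in the same orientation with other genes. The retained-intron transcript IGFBP2-205 shares 203 of its 4384 stretches with 2109 other genes. Whether reads of this transcript account for the fractional counts of IGFBP2 was not tested.

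Among genes listed by the authors as higher, 93 in all, IGFBP2 ranked 42 by the size of the log2 fold change fitted over 8 libraries, close to their median of 0.63. By the fold changes in the authors' deposited table, which follow replicates 2 to 4, it ranked 65. These ranks differ in the fit as well as in the libraries, and what moved its place was not tested. Among the 94 listed as lower, IGFBP7 ranked 26 by the fit, beyond their median of -0.81, and 24 in the authors' deposited table. By mean scaled count over both groups together IGFBP2 ranked 16 and IGFBP7 ranked 32 of 187, ranks that take in the differences between the groups.

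**Figure D3:**
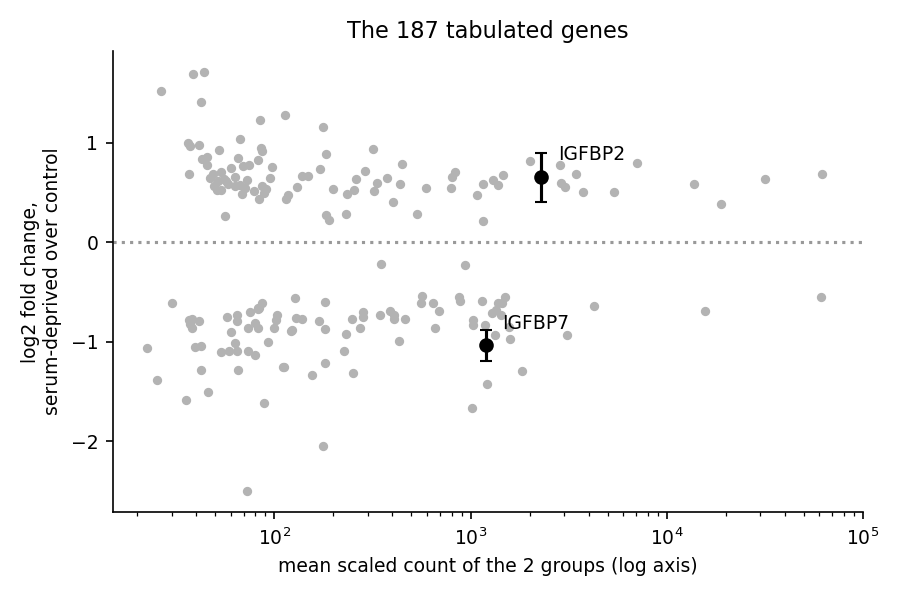
Log2 fold change of serum-deprived over control libraries against the mean scaled count (log axis) for all 187 tabulated genes in grey, with IGFBP2 and IGFBP7 in black and error bars of 1 SE. IGFBP2 stands at 0.65 and IGFBP7 at -1.03, and the empty band near 0 is left by the authors' selection on fold change.

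Other genes of the IGF and insulin system were nearly absent from the table. The lists drawn up for it hold 111 symbols, of which 5 were tabulated, IGFBP2 and IGFBP7 among them. None of the 10 ligands of the IGF, insulin and relaxin family, the 4 receptors, the 12 proteases of binding proteins and their regulators or the 32 genes of the signal relay was in the table. Of 9 IGF binding protein genes the members were the 2 tabulated. The table holds only genes past the authors' limits, so nothing is known here of the genes outside it. The other 3 tabulated genes were EGR1, PTPRZ1 and COL4A3, all called by edgeR (Benjamini-Hochberg adjusted p under 0.05), against 85% of all 187 genes. These calls test the contrast on which the table was selected, so nothing is read from them.

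EGR1, a transcription factor induced by insulin and growth factors, had scaled counts of 219.9, 490.5, 347 and 371 in control replicates 1 to 4 and 225, 115, 109.7 and 126 after deprivation. It was lower in pairs 2 to 4, by -2.10 to -1.55 on the log2 scale, and differed by 0.03 in pair 1, where the unscaled counts were 219 and 191, in the reverse order. Its log2 fold change was -1.31 ± 0.29 (SE), so EGR1 went the way of IGFBP7 in all pairs but the first.

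PTPRZ1, a receptor tyrosine phosphatase listed among IGFBP2 partners, had 2191, 1362, 1326 and 1221 scaled counts in controls and 1073, 718, 766 and 861 after deprivation. It was lower in all 4 pairs (log2 fold change -0.84 ± 0.21, SE), opposite to IGFBP2, although both genes had their highest count in replicate 1 of each group. COL4A3, a chain of the basement-membrane collagen IV that IGFBP7 binds, had 187, 221, 193 and 178 in controls and 222, 293, 266 and 307 after deprivation. It was higher in all 4 pairs (log2 fold change 0.48 ± 0.15, SE), opposite to IGFBP7.

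Profiles over the 8 libraries were compared by the root mean square difference of log2 scaled counts, each gene centred on its own mean. The genes most like IGFBP2 were SV2B, a synaptic vesicle glycoprotein, at 0.12, ANKFN1 at 0.16 and CADPS, an activator of dense-core vesicle release, at 0.17, against a median of 0.75 over the other 186 genes. Like IGFBP2, these 3 genes were highest in serum-deprived replicate 1, and their replicate 1 was the highest control as well. SV2B went from 2109.95 ± 439 to 3603 ± 1111 scaled counts (SD, n = 4 per group). The genes most like IGFBP7 were LAPTM4B, a lysosomal membrane protein, at 0.11, STRA6, the cell-surface receptor for retinol-binding protein, at 0.11 and ENC1, an actin-binding kelch protein, at 0.15, against a median of 0.77. LAPTM4B went from 4059.8 ± 605 to 2134 ± 207 and STRA6 from 84.5 ± 3.25 to 41.9 ± 6.98. IGFBP2 and IGFBP7 themselves were 0.88 apart.

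**Figure D4:**
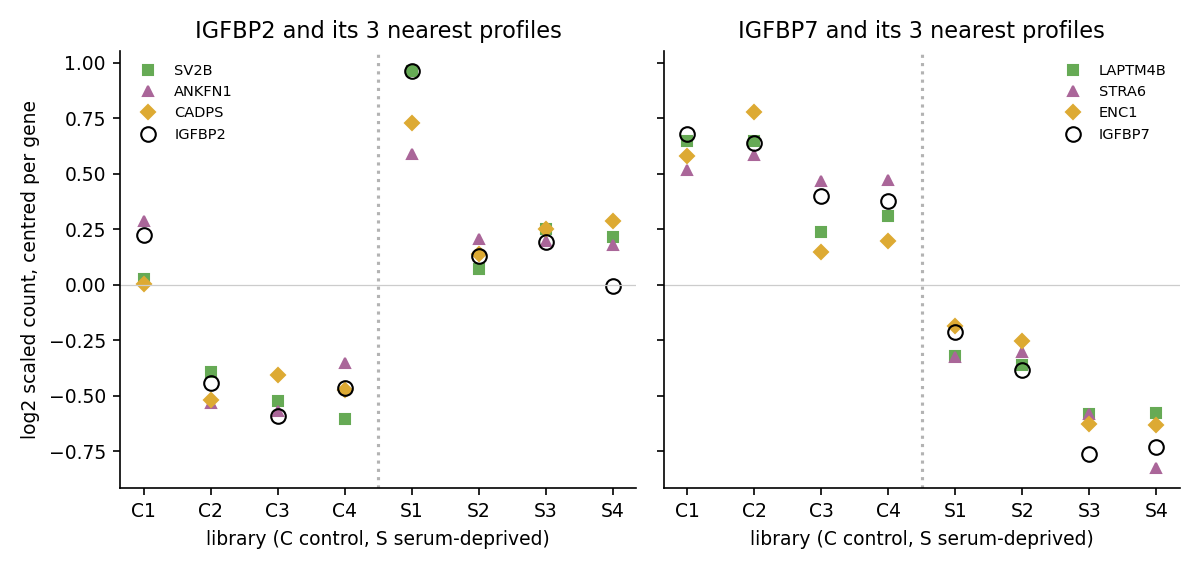
Log2 scaled counts, centred on each gene's mean over the 8 libraries, for IGFBP2 (left) and IGFBP7 (right), drawn as open black circles, and for the 3 genes with the nearest profile. C1 to C4 are controls and S1 to S4 serum-deprived libraries. The IGFBP2 panel has its peak in S1, where the IGFBP7 panel shows all 4 genes below their means.

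Serum and ITS were withdrawn together, so the shares of serum IGFs, of insulin and of the other removed components in either difference cannot be told apart. No library restored insulin or IGF alone, and the table holds no IGF, insulin or receptor gene whose counts could be set beside these values.

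**Figure D5:**
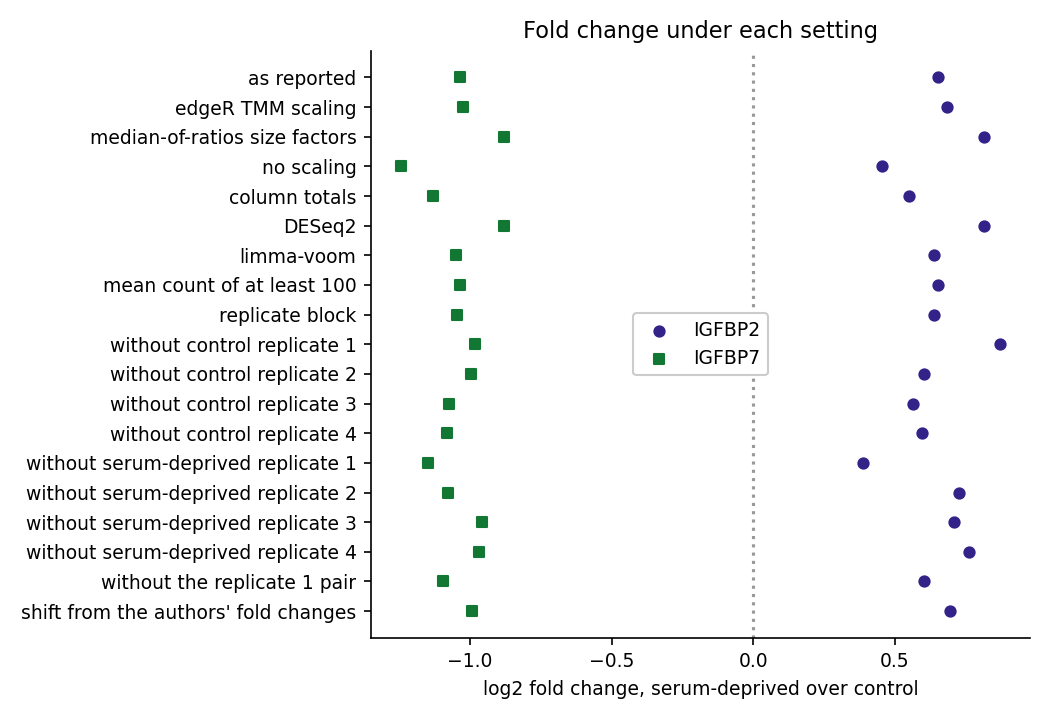
Log2 fold change of IGFBP2 (circles) and IGFBP7 (squares) as reported and under each alternative scaling, tool, filter or omission of libraries, with 0 dotted. IGFBP2 runs from 0.39 to 0.87 and IGFBP7 from -1.24 to -0.88, and neither crosses 0 under these settings.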

How the data were processed

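Stranded, polyadenylated RNA libraries were sequenced, per the labels' protocols. A single table was deposited by the authors, with estimated counts of 187 selected genes per library, a log2 fold change and an FDR (an adjusted p-value), the last 2 printed only as the authors' deposited values. The submitters' processing notes name kallisto, edgeR, cutadapt and FastQC, and the build GRCh38. Columns were matched to samples by medium and replicate number, and 0 columns were of other samples.

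The members, gene lists and rule for named genes (members, tabulated list genes and the 3 nearest profiles of each member) were chosen with earlier results of these data known. Within a group, size factors were medians of ratios to the geometric mean (pseudocount 0.5). Between groups, the widest empty interval of log2 ratios with 20 or more genes on each side (-0.41 to 0.02) was centred on 0. Dividing the estimated counts by these factors gave the scaled counts. Counts rounded to whole numbers were fitted with edgeR 4.0.16 (R 4.3.3; glmQLFit, glmQLFTest) over 8 libraries with no covariate, two-sided, Benjamini-Hochberg adjusted over 187 genes. The fitting and scaling steps were tested on 10 simulated tables, in which no replicate stood apart from the others. The simulated fit was given its true size factors. These tables therefore cannot show that the scale between groups is right for these data. Alternatives used limma 3.58.1 and DESeq2 1.42.0, other scalings, a filter on low counts, a replicate block and omitted libraries. Across genes, the deviations of same-numbered libraries had correlations of 0.216, 0.377, 0.111 and 0.122. Such values for libraries of different numbers are not given, so pairing by number is an assumption. Transcripts, positions and sequences came from GENCODE 29 (GRCh38) and were read with Python 3.11.15 and Biopython 1.88. Depth is unknown.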

Additional observations from a re-analysis of the deposited data

Results flagged for a closer look

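In groups of 4, a library was marked when its gap to the next value passed Dixon's 95% critical share of the group's range, which chance does in about 1 group in 20. Of 12 groups checked, 4 were marked, all by replicate 1. IGFBP2 was marked in both groups, at 2536 scaled counts in control replicate 1 and at 4235 in serum-deprived replicate 1. EGR1 was marked at 225 in serum-deprived replicate 1, where replicates 2 to 4 held 109.7 to 126. PTPRZ1 was marked at 2191 in control replicate 1, where replicates 2 to 4 held 1221 to 1362. What sets replicate 1 apart was not tested.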

How the results depend on the processing

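IGFBP2 was higher and IGFBP7 lower after deprivation under all 18 alternatives run for each, and the log2 ratio difference stayed between 1.57 and 1.81 under its 13. The fold changes of IGFBP2 ranged from 0.39 to 0.87, both ends set by leaving out 1 library, and those of IGFBP7 from -1.24 (no scaling) to -0.88 (median-of-ratios size factors). With a replicate block they were 0.64 and -1.05, and the ratio difference was 1.68. The 159 genes called by edgeR (69 higher, 90 lower) became 91 of the 107 genes with a mean count of at least 100, and 112 without scaling (21 higher, 91 lower). More genes were higher than lower with median-of-ratios size factors (80 against 74) and in DESeq2 (82 against 77), and all 187 were called without the replicate 1 pair (93 higher, 94 lower). They ranged from 133 to 173 on leaving out 1 library at a time and were 162 with the replicate block. The data were already known when 2 settings were added, leaving out the replicate 1 pair and taking the shift from the deposited fold changes. The table holds no unchanged genes and no library totals, so the scale between groups, and with it the size of each fold change, remains an estimate.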
